A study of Mus musculus with 9 samples.

Results

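The subunits of oxidative phosphorylation were followed through the mRNA of a mouse intrahepatic cholangiocarcinoma line and 2 clones labelled as Vcam1 knockouts of it. Members were taken by gene symbol, as the rows named for NADH dehydrogenase (Nduf followed by a, b, c, s or v and a number), succinate dehydrogenase (Sdha to Sdhd), cytochrome c reductase (Uqcr), cytochrome c oxidase (Cox4 to Cox8), ATP synthase (Atp5) and their mitochondrially encoded partners (mt-Nd, mt-Co, mt-Atp and mt-Cytb), without rows whose symbol holds -ps. The rule found 101 members among 55276 genes, of which 88 are nuclear encoded and 13 are encoded by the mitochondrial genome. Of these, 79 nuclear and all 13 mitochondrial members passed the filter on low counts and entered the tests. The nuclear rows Cox6c2, Ndufa11b, Ndufb4c and Ndufs6b are annotated as processed pseudogenes. Of these pseudogenes only Ndufb4c, whose 31-base stretches all occur in other genes, was tested, and it is counted among the members of complex I. The parent cells, called PPTR, carry Prom1CreERT2, a Cre recombinase driven from the Prom1 locus, and the reporter Rosa-ZsGreen, and by their labels all 9 libraries share this engineered background, which is not reported here in full. The group labelled WT (3 libraries) keeps Vcam1, which codes for a cell adhesion molecule, while KO1 and KO2 (3 libraries each) are each 1 clone grown out after Cas9 cutting with a guide to exon 2 of Vcam1. The cells were grown alone in culture with no treatment, and the libraries of a group came from different passages that the labels do not name. For a single clone, p-values therefore measure the spread between passages of 1 line or clone. Where all KO libraries are set against WT, differences between the clones count as spread too, and those libraries stand for only 2 clones. Replicate numbers follow the order in which the libraries are listed, since the labels give none.

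Oxidative phosphorylation couples electron transfer to ATP synthesis across the inner mitochondrial membrane. Complexes I and II pass electrons from NADH and succinate to ubiquinone, complex III passes them on to cytochrome c, complex IV hands them to oxygen, and complex V makes ATP from the proton gradient that complexes I, III and IV build. All complexes but complex II are assembled from subunits of both genomes, since the mitochondrial DNA codes for a few hydrophobic core subunits and the nucleus for all the rest.

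The libraries held between 53415907 and 125223073 estimated counts. Vcam1 itself was at 248, 220.4 and 329 CPM (counts scaled to a common library total with TMM factors) in WT against 98.8, 92.4 and 128 CPM in KO1 and 119, 99.4 and 82.9 CPM in KO2, so transcript remained in both clones. The markers of the labelled cell type split between the groups. The keratin Krt8 stood at 5199, 5359 and 5568 CPM in WT and at no more than 0.497 CPM in any KO library. Krt18 and Krt19 stood above 2128 CPM in every WT library and at no more than 0.226 CPM in any KO library. Of the 9 biliary and epithelial markers tested, 6 were lower in KO, and Spp1 was higher. Of the 5 hepatocyte markers tested, 4 were lower and 0 higher in KO. Among the hepatocyte markers, Hnf4a was at 207 to 264 CPM in WT and at 0 counts in all 6 KO libraries. The summed fibroblast markers lay between 427 and 827 CPM in WT, between 10392 and 13017 CPM in KO1 and between 6198 and 7512 CPM in KO2, and the haematopoietic list did not exceed 10.4 CPM in any library. Of the 6 fibroblast markers tested, 5 were higher and 0 lower in KO. In KO1 against WT, 4 were higher and 1 was lower, at a log2 fold change of -4.11. KO1 replicate 3 stood apart in its summed proliferation genes (241 CPM, against 885 to 2587 CPM in the other 8 libraries). The clones thus differ from WT in defining markers of the labelled cells, and whether they descend from the same cells as the WT libraries was not tested, which bears on every difference between KO and WT given here. In these bulk samples fewer cells of a type and less RNA per cell cannot be told apart.

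The promoters of 5 nuclear members with large or clone-dependent changes are shown, to set their sequences beside the values given further on. They run from 250 bases before to 50 bases after the start site, as RefSeq gives them on build GRCm38.p6, 5′ to 3′ on the strand of the gene, and all 5 genes lie on the minus strand. They cover chr6:11907401-11907700 for Ndufa4, chr5:115348909-115349208 for Cox6a1, chr4:116075021-116075320 for Uqcrh, chr13:73328433-73328732 for Ndufs6 and chr5:108434350-108434649 for Atp5k. Capitals mark matches to the letters GCGCATGCG (the NRF1 motif) or CCGGAAGT (the ETS motif, which GABP also binds) or AAGATGGC (the YY1 motif), searched on both strands, where the palindromic core makes the NRF1 match overlap itself.
Ndufa4: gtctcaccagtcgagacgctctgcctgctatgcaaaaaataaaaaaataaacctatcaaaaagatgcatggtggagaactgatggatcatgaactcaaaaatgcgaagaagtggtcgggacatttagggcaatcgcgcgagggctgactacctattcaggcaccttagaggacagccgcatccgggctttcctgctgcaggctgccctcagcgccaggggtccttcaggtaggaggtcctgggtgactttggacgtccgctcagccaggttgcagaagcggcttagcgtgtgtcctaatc
Cox6a1: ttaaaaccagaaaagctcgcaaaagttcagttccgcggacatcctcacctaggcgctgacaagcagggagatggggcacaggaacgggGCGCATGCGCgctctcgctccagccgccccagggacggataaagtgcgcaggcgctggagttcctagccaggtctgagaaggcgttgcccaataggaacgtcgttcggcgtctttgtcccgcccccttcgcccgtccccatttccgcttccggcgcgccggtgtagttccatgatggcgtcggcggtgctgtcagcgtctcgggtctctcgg
Uqcrh: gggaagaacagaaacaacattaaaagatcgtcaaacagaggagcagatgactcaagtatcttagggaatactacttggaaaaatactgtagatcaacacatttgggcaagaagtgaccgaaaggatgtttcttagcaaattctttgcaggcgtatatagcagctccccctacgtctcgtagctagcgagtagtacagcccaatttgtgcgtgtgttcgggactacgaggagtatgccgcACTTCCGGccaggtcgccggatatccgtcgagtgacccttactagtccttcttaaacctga
Ndufs6: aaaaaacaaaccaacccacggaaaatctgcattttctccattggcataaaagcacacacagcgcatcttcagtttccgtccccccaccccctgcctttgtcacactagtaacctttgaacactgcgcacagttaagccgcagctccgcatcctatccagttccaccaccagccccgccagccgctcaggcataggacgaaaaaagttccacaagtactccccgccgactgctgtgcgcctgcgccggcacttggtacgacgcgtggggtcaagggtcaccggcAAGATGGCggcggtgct
Atp5k: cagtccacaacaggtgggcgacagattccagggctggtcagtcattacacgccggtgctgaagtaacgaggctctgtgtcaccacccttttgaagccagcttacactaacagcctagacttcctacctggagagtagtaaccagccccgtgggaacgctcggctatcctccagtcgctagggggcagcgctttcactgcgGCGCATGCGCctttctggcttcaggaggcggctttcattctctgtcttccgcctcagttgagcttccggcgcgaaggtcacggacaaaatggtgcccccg
The NRF1 letters were found once in the promoters of Atp5k and Cox6a1, the ETS letters in Uqcrh, the YY1 letters in Ndufs6, and none of these in Ndufa4. A promoter was given for 68 of the 88 nuclear members. The NRF1 letters were in 11.8% of these against 1.8% of all 27025 promoters in the table, the ETS letters in 7.4% against 4.0%, and the YY1 letters in 13.2% against 2.9%. The promoters of members also held a median of 19 CG pairs, against 7 over all promoters. The NRF1 and ETS letters contain CG themselves, and the part of CG content in these shares was not tested. The 8 members with the NRF1 letters were Atp5g2, Atp5k, Atp5l, Cox6a1, Ndufa11, Ndufa8, Uqcr11 and Uqcrc1, and their median log2 fold change between all KO and WT libraries was 0.51, beside 0.22 for the 57 tested members whose given promoter lacks them. Of the 8, all but Uqcrc1 were higher in KO, beside 20 higher and 4 lower of the 57 and 21.7% higher of all genes tested. Cox6a1 passed narrowly (edgeR adjusted p = 0.0465, and up to 0.141 with 1 library left out), and Atp5g2 lost its call without WT replicate 1 or 2. For the ETS letters 3 of 5 members were higher (median 0.40, beside 0.24 for the 60 without them), and for the YY1 letters 3 of 9 were higher and 1 lower (0.36, beside 0.23 for the 56 without them). These are descriptions of a few genes, with no test.

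The first question was how the transcripts of the 2 genomes differed between the control and the clones. In the comparison of all 6 KO libraries with WT, 33 of 79 nuclear members were higher and 5 were lower at an adjusted p of 0.05 (edgeR quasi-likelihood test), where 21.7% of all 17672 genes tested were higher and 21.2% were lower. The nuclear members had a median log2 fold change of 0.23 beside 0.07 over all genes. For 34 nuclear members every KO library lay above every WT library, and for 4 every KO library lay below, beside 21.2% and 23.0% of all genes. Among the 13 mitochondrial members 5 were higher and 0 lower, with a median of 1.12, and the libraries separated completely for mt-Nd1, mt-Nd2 and mt-Cytb. The number of nuclear members called in either direction, 38 with all libraries, was 22, 25 and 25 when WT replicate 1, 2 or 3 was left out, with medians between 0.16 and 0.25. Wherever a count of 0 is given for subunits in this comparison, 0 members reached an unadjusted p of 0.05 in that direction as well.

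**Figure D1:**
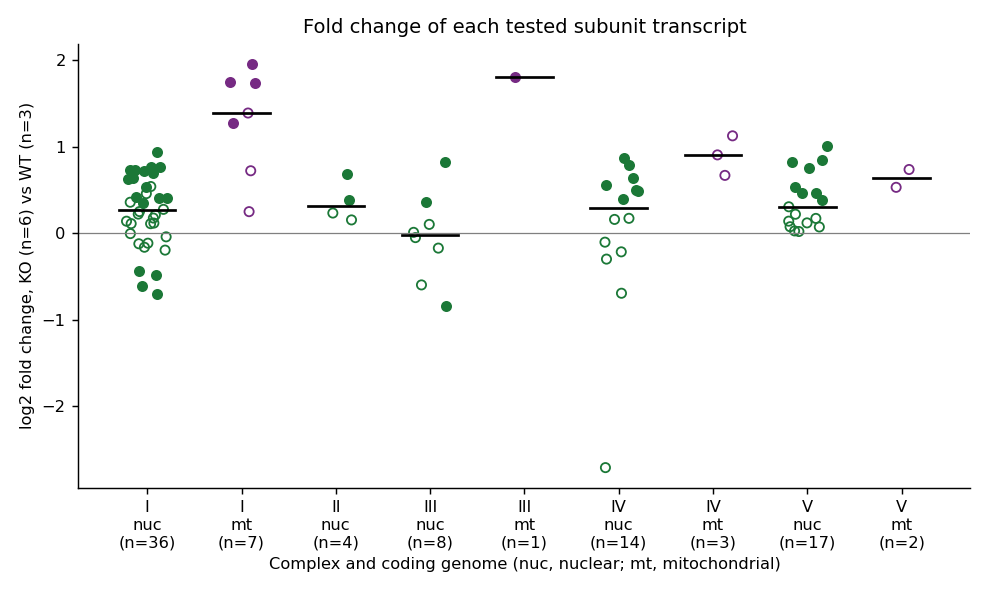
Log2 fold change of each tested member between the 6 KO and the 3 WT libraries (vertical axis), by complex and coding genome (horizontal axis). Filled points passed an adjusted p of 0.05, open points did not, and bars are medians. The mitochondrial medians lie above the nuclear median of the same complex in complexes I, III, IV and V, and complex III has a nuclear median near 0.

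Each clone was also set against the WT libraries, which both comparisons share. In KO1, 37 nuclear members were higher and 6 lower, where 29.9% and 30.0% of all genes were, and 9 mitochondrial members were higher. In KO2, 36 nuclear members were higher and 9 lower, where 25.3% and 26.1% of all genes were, and 5 mitochondrial members were higher. The nuclear members that were lower made up 7.59% and 11.4% of those tested. Between the clones, 10 nuclear members were higher in KO1 and 9 in KO2, or 12.7% and 11.4% of those tested, where 20.2% and 18.5% of all genes were. That split was 15 and 7 with upper-quartile scaling and 14 and 7 with library totals. Of the mitochondrial members 0 passed between the clones with edgeR, 2 reached an unadjusted p of 0.05, both higher in KO1, limma-voom called 0 and DESeq2 called 1.

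Complex I, the NADH dehydrogenase, had 36 tested nuclear members, of which 14 were higher and 4 lower in KO. Its 7 nuclear core subunits carry the flavin and iron-sulfur clusters, and 4 of them were higher and 0 lower. Ndufs1, the largest core protein, was at 74.8, 75.7 and 75.6 CPM in WT, 135, 134 and 116 CPM in KO1 and 129.9, 131 and 127 CPM in KO2. Its WT values were the tightest of the nuclear members, and every KO library lay above them (log2 fold change 0.77 ± 0.09 SE, adjusted p = 0.000176). Ndufv2, which holds a cluster beside the flavin site, also rose, at 62.6 to 71.2 CPM in WT and 99.9 to 120.4 CPM across the 6 KO libraries. The core subunit Ndufv1, which binds NADH, did not pass (log2 fold change -0.20, adjusted p = 0.174), although all KO libraries lay below WT.

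The supernumerary subunits of complex I, which surround the core, moved in both directions. Ndufb2, a membrane arm subunit, had the highest log2 fold change of the nuclear members of complex I. It was at 27.1, 27.9 and 24.8 CPM in WT, at 54.3, 53.4 and 62.7 CPM in KO1 and at 40.4, 46.5 and 48.7 CPM in KO2. All KO libraries lay above WT, and the KO1 and KO2 libraries did not overlap (log2 fold change 1.09 ± 0.12 in KO1 and 0.76 ± 0.11 in KO2, adjusted p = 3.59e-05 and 0.000419). Ndufa6, a small subunit of the hydrophilic arm, had the lowest log2 fold change. It stood at 147, 122 and 188 CPM in WT, 82.5, 73.6 and 119 CPM in KO1 and 92.5, 109 and 87.1 CPM in KO2, with every KO library below WT (log2 fold change -0.70 ± 0.18, adjusted p = 0.0121, and 0.0644 without WT replicate 3). Ndufs6, needed for late assembly of the NADH-oxidising module, was at 63.9 to 75.9 CPM in WT, 34.4 to 39.4 CPM in KO1 and 52.4 to 63.0 CPM in KO2, so the 3 groups did not overlap (log2 fold change -0.96 ± 0.11 in KO1 and -0.33 ± 0.11 in KO2, adjusted p = 7.98e-05 and 0.0366). Ndufb6 and Ndufs5 were the other members of complex I that fell (-0.44 and -0.48, adjusted p = 0.0486 and 0.0425), and in both the KO1 libraries overlapped WT. The remaining 18 tested nuclear members of the complex did not pass.

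Some subunits of complex I set the clones apart. Ndufb11, a membrane arm subunit coded on the X chromosome, was at 70.0, 71.9 and 63.2 CPM in WT, 73.9, 73.0 and 83.7 CPM in KO1 and 106, 127 and 133 CPM in KO2. The KO2 libraries stood above all others, while KO1 lay just above WT and did not pass against it (log2 fold change between KO1 and KO2 -0.66 ± 0.12, adjusted p = 0.00217). Ndufa9, which sits where the peripheral arm meets the membrane arm, was at 79.9, 87.0 and 74.5 CPM in WT, 90.2, 89.6 and 82.6 CPM in KO1 and 57.7, 63.1 and 62.4 CPM in KO2. Here KO2 lay below all other libraries, and KO1 overlapped WT (0.52 ± 0.10 between the clones, adjusted p = 0.00283).

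The 7 mitochondrial members of complex I form its proton-pumping membrane core, and 4 of them were higher in KO. mt-Nd1 (chrM:2751-3707 on GRCm38) was at 487, 259 and 377 CPM in WT, 738, 891 and 1201 CPM in KO1 and 1285, 763 and 549.9 CPM in KO2. mt-Nd2 (chrM:3914-4951) was at 207, 104 and 207 CPM in WT, 533, 704 and 1052 CPM in KO1 and 842, 569.8 and 312 CPM in KO2. Both separated the groups, since the lowest KO library, KO2 replicate 3, still lay above the highest WT library, and their log2 fold changes were 1.27 ± 0.31 and 1.95 ± 0.40 (adjusted p = 0.00944 and 0.00378). mt-Nd4 (log2 fold change 1.74 ± 0.51, adjusted p = 0.0216) and mt-Nd4l (1.74 ± 0.50, adjusted p = 0.0198) rose as well, but KO2 replicate 3 lay below the highest WT library in both, and neither passed without WT replicate 2 (adjusted p = 0.0869 and 0.0759), nor did mt-Nd4 without WT replicate 3 (0.0558). mt-Nd5 was higher in KO1 than in WT, at 520.5 to 1134 CPM against 89.1 to 274 CPM (log2 fold change 1.86 ± 0.47, adjusted p = 0.00694), and KO2 overlapped WT at 229 to 479 CPM. mt-Nd3 likewise passed in KO1 and not in KO2 (0.998 ± 0.25, adjusted p = 0.00633), and the difference between the clones did not pass for either (adjusted p = 0.0689 and 0.0726). mt-Nd3 shares most of its sequence with a nuclear copy, whose counts are given further on. mt-Nd6, the one member coded on the other strand of the mitochondrial genome, was the scarcest, at 1.05 to 5.93 CPM over all libraries, and passed nowhere.

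Complex II, succinate dehydrogenase, is also an enzyme of the tricarboxylic acid cycle and is wholly nuclear encoded. Sdhc, a membrane anchor, was at 107, 110.0 and 105 CPM in WT, 182, 167 and 202 CPM in KO1 and 158, 174 and 150.0 CPM in KO2, and Sdha, the flavoprotein that oxidises succinate, was at 204, 220.4 and 221 CPM, 289.9, 284 and 272 CPM and 285, 293 and 266 CPM. All KO libraries of both lay above WT, with log2 fold changes of 0.68 ± 0.12 and 0.39 ± 0.10 (adjusted p = 0.00151 and 0.00988, the latter 0.0649 without WT replicate 1). Sdhb, the iron-sulfur subunit, was at 55.2, 63.7 and 57.6 CPM in WT, 53.3, 48.9 and 58.8 CPM in KO1 and 73.8, 88.2 and 92.1 CPM in KO2. KO1 overlapped WT and KO2 lay above both (log2 fold change between KO1 and KO2 -0.66 ± 0.12, adjusted p = 0.00258). Sdhd, the other anchor, was at 101 to 118 CPM in WT, 109 to 114 CPM in KO1 and 123 to 142 CPM in KO2, and no comparison passed for it.

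Complex III was the complex whose summed nuclear transcripts were not higher in the clones. Per kilobase of transcript its 8 nuclear members summed to 1942, 2068 and 1734 CPM in WT, 1611, 1581 and 1939 CPM in KO1 and 1465, 1701 and 1552 CPM in KO2, and 2 members were higher and 1 lower in KO. The lower member was Uqcrq, a small subunit that binds beside cytochrome b, which was at 292, 326 and 240.4 CPM in WT, 143, 144 and 183 CPM in KO1 and 160.0, 186 and 141 CPM in KO2. Every KO library lay below WT, and the fall was close in the clones (log2 fold change -0.87 ± 0.16 in KO1 and -0.82 ± 0.16 in KO2, adjusted p = 0.00125 and 0.00221). Uqcrh, the hinge protein that helps cytochrome c dock, was at 206, 184 and 172 CPM in WT, 155, 144 and 193 CPM in KO1 and 75.6, 89.8 and 85.3 CPM in KO2. KO1 overlapped WT, and KO2 lay under every other library (log2 fold change against WT -1.16 ± 0.14, adjusted p = 9.57e-05, and 0.97 ± 0.14 between the clones, adjusted p = 0.000699). Uqcrfs1, the Rieske iron-sulfur protein, showed the reverse order, at 91.9, 97.1 and 89.1 CPM in KO1 against 119 to 137 CPM in the WT and KO2 libraries (log2 fold change of KO1 against WT -0.44 ± 0.09, adjusted p = 0.00277). Uqcr11, the smallest subunit, rose from 67.2 to 74.8 CPM in WT to 123 to 171 CPM in KO1 and 93.3 to 119 CPM in KO2 (log2 fold change 0.82 ± 0.18, adjusted p = 0.00491). Uqcrb also rose, and the 2 core proteins Uqcrc1 and Uqcrc2 did not pass, at log2 fold changes of 0.10 and -0.05.

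The single mitochondrial member of complex III moved apart from its nuclear partners. mt-Cytb (chrM:14145-15288), cytochrome b, was at 728, 309 and 662 CPM in WT, 1430.1, 1987 and 2944 CPM in KO1 and 2697, 1979 and 808 CPM in KO2. All KO libraries lay above WT, by a small margin in KO2 replicate 3 (log2 fold change 1.80 ± 0.44, adjusted p = 0.00946). The ratio of cytochrome b to the summed nuclear subunits of the complex, per kilobase, was 0.264 ± 0.115 (SD, n = 3) in WT, 1.07 ± 0.277 in KO1 and 1.03 ± 0.577 in KO2.

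Complex IV, cytochrome c oxidase, had 7 higher and 0 lower nuclear members of 14 tested in KO. Ndufa4, named for complex I but a subunit of complex IV, had the highest log2 fold change of the nuclear members of the complex. It was at 118, 137 and 97.0 CPM in WT, 262, 261 and 279 CPM in KO1 and 149, 164 and 167 CPM in KO2. The 3 groups did not overlap, with KO1 highest (log2 fold change against WT 1.19 ± 0.13 in KO1 and 0.45 ± 0.13 in KO2, adjusted p = 5.54e-05 and 0.0187, and 0.74 ± 0.13 between the clones, adjusted p = 0.0024). Without WT replicate 1 or 3 or KO2 replicate 2 the change in KO2 no longer passed (adjusted p up to 0.0596). Cox7b, a small membrane subunit, rose more in KO2, at 84.4 to 100.0 CPM in WT, 116 to 131 CPM in KO1 and 161 to 173 CPM in KO2. Again the groups did not overlap, in the order opposite to Ndufa4 (-0.44 ± 0.10 between KO1 and KO2, adjusted p = 0.00851). Cox6c, Cox7a2, Cox8a and Cox5b rose in KO with log2 fold changes of 0.79, 0.50, 0.48 and 0.40, and Cox8a no longer passed without any 1 of the WT libraries (adjusted p up to 0.105). The catalytic mitochondrial subunits mt-Co1, mt-Co2 and mt-Co3 did not pass in the comparison of all KO libraries (log2 fold changes 0.90, 1.12 and 0.67, adjusted p = 0.115, 0.0549 and 0.129), and their WT and KO libraries overlapped. mt-Co2 passed in KO1 alone (1.28 ± 0.45, adjusted p = 0.0334, and up to 0.109 with 1 library left out).

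**Figure D2:**
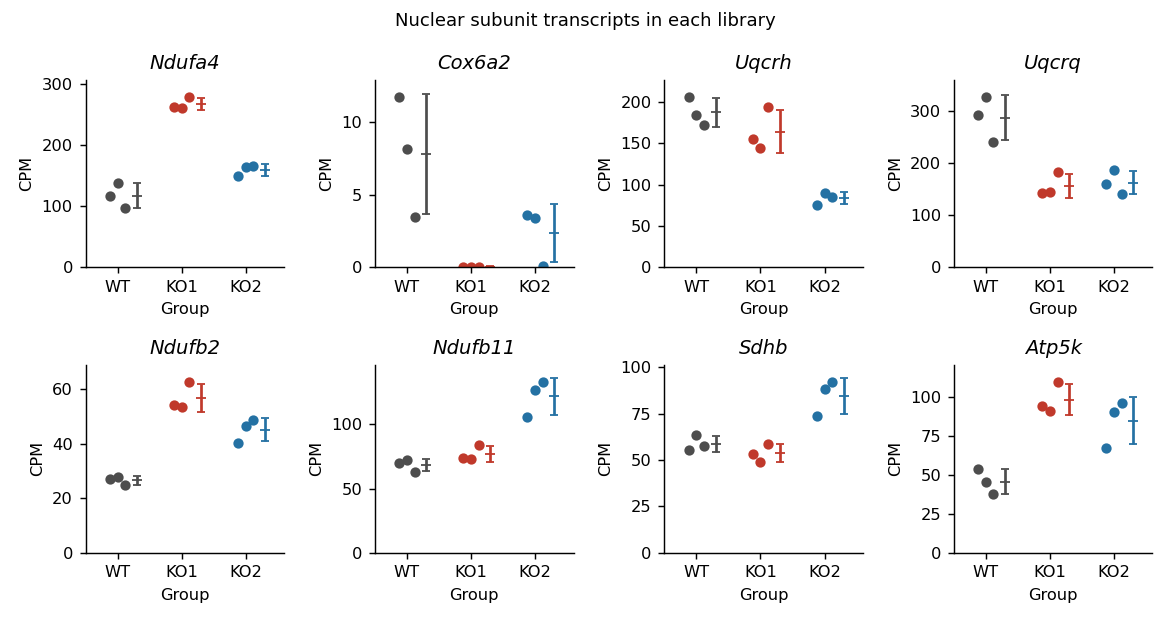
CPM (vertical axes, from 0) of 8 nuclear members in each library by group (horizontal axes), with the group mean and SD of 3 libraries to the right of the points. Ndufa4, Ndufb2 and Atp5k are above WT in both clones, Uqcrq is below, Uqcrh is low in KO2 alone, Ndufb11 and Sdhb are high in KO2 alone, and Cox6a2 is near 0 in KO1.

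Complex IV is the complex with tissue-specific subunit isoforms, and the cells used the widely expressed form of each. Cox6a2, the form of heart and skeletal muscle, was the exception in WT. It was at 11.7, 8.15 and 3.49 CPM in WT, 0.0599, 0.0417 and 0 CPM in KO1 and 3.58, 3.42 and 0.0739 CPM in KO2, which in KO1 are 4, 4 and 0 counts. KO1 lay below every other library, and KO2 replicate 3, with 5 counts, lay close to KO1 and apart from its own group. KO1 was lower than WT (adjusted p = 0.000974) and than KO2 (adjusted p = 0.00713, and 0.104 with limma-voom), and the size of the fitted change rests on these few counts. Per kilobase Cox6a2 made up 5.18%, 3.50% and 1.51% of the Cox6a transcripts in WT and at most 1.43% in any KO library. Its partner Cox6a1 was at 180.1, 189 and 191 CPM in WT, 278, 292 and 396 CPM in KO1 and 208, 245 and 230.3 CPM in KO2, higher in KO1 than in KO2 (0.50 ± 0.15, adjusted p = 0.0236, and 0.104 and 0.0619 without KO2 replicate 1 or 3). The 6 muscle markers summed to between 0.354 and 0.849 CPM in WT, where Myh1, Myh2 and Myl1 were at or under 3 counts, and to between 1.03 and 10.1 CPM in KO, and 2 of the 3 tested were higher in KO. Cox7a1, the other muscle form, was at 1.19 to 1.39 CPM in WT and 0.429 to 0.721 CPM in KO2 (log2 fold change -1.28 ± 0.36, adjusted p = 0.0138). Cox7a2 and Cox7a2l, of which the latter is known for its part in respiratory supercomplexes, made up 46.5% and 52.4% of the Cox7a transcripts per kilobase in WT, 62.7% and 36.5% in KO1 and 57.9% and 41.7% in KO2. The WT and KO libraries did not overlap in either share. Cox4i2, Cox6b2, Cox6c2, Cox7b2, Cox8b, Cox8c and Ndufa4l2 were too low to be tested, with group means of at most 0.157 CPM, as were Ndufa11b and Ndufs6b of complex I. Among them Cox6c2, Ndufa11b and Ndufs6b are annotated as processed pseudogenes.

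Complex V, the ATP synthase, had 8 higher and 0 lower nuclear members of 17, and 7 of them belong to its membrane part. All 3 genes for the c ring, which turns as protons pass, rose. Atp5g3 was at 167, 191 and 155 CPM in WT, 288, 301 and 314 CPM in KO1 and 284, 304 and 322 CPM in KO2 (log2 fold change 0.82 ± 0.11, adjusted p = 0.000363). Atp5g1 was at 115 to 153 CPM in WT and 169 to 203 CPM in KO (0.54 ± 0.12, adjusted p = 0.00663), and Atp5g2 at 24.9 to 27.9 CPM and 31.9 to 38.7 CPM (0.39 ± 0.11, adjusted p = 0.0158, and up to 0.0874 with 1 WT library left out). All KO libraries lay above WT for each of the 3 genes, of which Atp5g2 shares 40.2% of its 31-mers with other genes, and the share of Atp5g3 among them per kilobase went from 46.2% ± 0.802 in WT to 51.3% ± 0.597 in KO1 and 52.0% ± 0.720 in KO2 (SD, n = 3).

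Of the 5 small membrane subunits of complex V, 4 rose. Atp5k, the e subunit, which helps ATP synthase form dimers, was at 53.6, 45.7 and 37.8 CPM in WT, 94.0, 91.0 and 109.6 CPM in KO1 and 67.6, 90.7 and 96.3 CPM in KO2. Every KO library lay above WT, and it was the nuclear member with the highest log2 fold change in the comparison of all KO libraries (1.002 ± 0.17, adjusted p = 0.00124). Atp5j2, Atp5mpl and Atp5l rose by log2 fold changes of 0.84, 0.76 and 0.47, and Atp5md did not pass at 0.22. In the catalytic F1 head 1 of 5 members rose, Atp5c1, the rotor's central shaft, at a log2 fold change of 0.46 (adjusted p = 0.0096). Atp5a1 and Atp5b, which form the catalytic ring, had log2 fold changes of 0.07 and 0.30 and did not pass. None of the 4 peripheral stalk members passed, with Atp5h at 164 to 180.3 CPM in WT and 159 to 192 CPM in KO. Atp5o of the stalk differed between the clones, at 215, 217 and 199 CPM in KO1 and 127, 153 and 153 CPM in KO2 (0.54 ± 0.11, adjusted p = 0.00492), with WT at 150.3 to 171 CPM between them but overlapping KO2. It shares 22.3% of its 31-mers, most of all with the neighbouring gene Donson. The mitochondrial subunits mt-Atp6, the proton channel, and mt-Atp8 did not pass in the comparison of all KO libraries (0.74 ± 0.30 and 0.53 ± 0.37, adjusted p = 0.076 and 0.275), and mt-Atp6 passed in KO1 (0.97 ± 0.29, adjusted p = 0.0158, and 0.0714 without WT replicate 2). mt-Atp6 shares 99.5% of its 31-mers with other genes, and the counts of its nuclear copy are given further on.

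**Figure D3:**
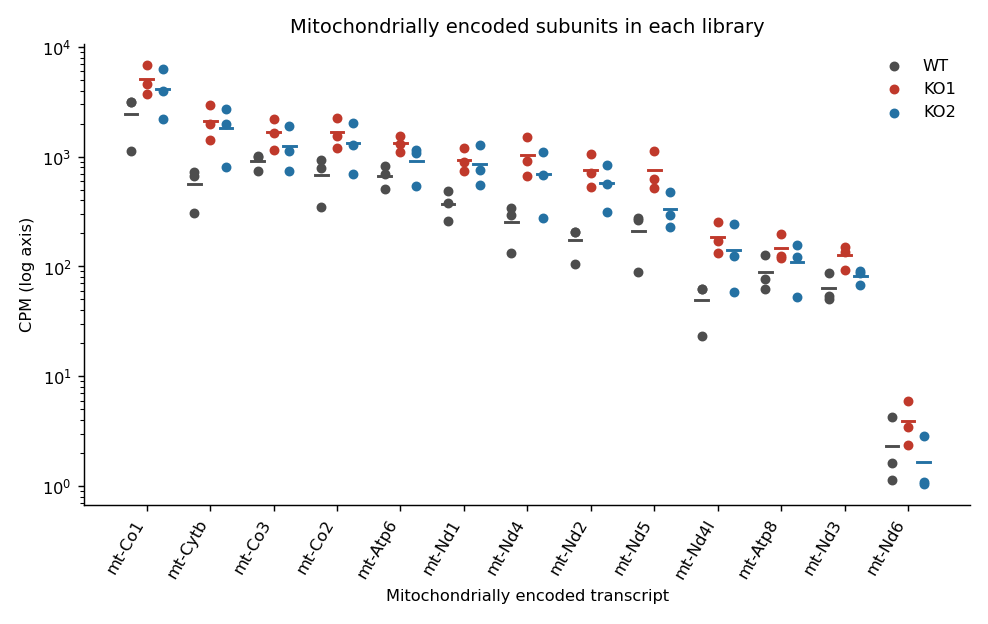
CPM (vertical axis, log scale) of the 13 mitochondrially encoded members in each library (horizontal axis, ordered by mean level). Points are libraries and bars are group means. The points of KO2 spread down into the WT range for most genes, and mt-Nd1, mt-Nd2 and mt-Cytb are the 3 without overlap.

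The mitochondrial members varied far more between libraries of a group than the nuclear ones. Medians were taken over members with a mean of at least 5 CPM, which were 12 mitochondrial and 77 nuclear members. The median coefficient of variation was 38.6%, 32.3% and 47.2% in WT, KO1 and KO2 for these mitochondrial members. It was 7.56%, 7.50% and 8.38% for the nuclear ones. The 13 transcripts summed to 8152, 3812 and 7654 CPM in WT, 12174, 13917 and 21354 CPM in KO1 and 18324, 12091 and 6530.4 CPM in KO2. All KO1 libraries and 2 of the KO2 libraries lay above WT, and KO2 replicate 3 lay within the WT range. The order was shared across genes, since KO1 replicate 3 was the highest of its group for 13 of 13 members, KO2 replicate 3 the lowest of its group for 13 of 13, and WT replicate 2 the lowest of its group for 11 of 13. Of all libraries, KO1 replicate 3 was the lowest in summed proliferation genes at 241 CPM and KO2 replicate 3 the highest at 2587 CPM, and their part in the mitochondrial levels was not tested. Without KO2 replicate 3, 10 of the 13 mitochondrial members passed between all KO libraries and WT, without KO1 replicate 3 there were 5, and without WT replicate 2 or 3 there were 4. In the comparison of KO2 with WT, 5 passed, 1 did without KO2 replicate 1, and 3 did without KO2 replicate 2 or without any 1 of the WT libraries.

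Sequence shared with nuclear copies touches these values. Fragments of mitochondrial DNA copied into chromosomes are listed as genes of their own, and reads that fit both are split between them by the estimate. Of the 31-mers of each transcript, mt-Co2 shared 100% with other genes, mt-Co3 99.9%, mt-Atp6 99.5%, mt-Nd4l 98.9% and mt-Nd3 98.1%, while mt-Nd1 shared 0%, mt-Cytb 6.6% and mt-Nd2 13.5%. The 3 members that separated all KO from all WT libraries are thus among the 6 that shared under 20%. The nuclear copies held counts equal to between 3.47% and 11.5% of the mitochondrial sum in each library. With those counts added to the member each copy shares most with, 7 rather than 5 members were higher between KO and WT, at a median of 1.12. In KO2 against WT it was also 7 rather than 5, while KO1 against WT stayed at 9. Gm28438 and Gm10925, the copies closest to mt-Nd3 and mt-Atp6, averaged 69.3 and 265 CPM, beside 91.0 and 972 CPM for those members. Gm10925 had means of 50.8 CPM in WT, 200 CPM in KO1 and 544 CPM in KO2. In KO2 against WT the log2 fold changes were 0.38 for mt-Nd3 and 0.45 for mt-Atp6. They reached 0.94 and 0.999 under the alternatives, which include the added counts of copies. With 1 library left out they reached at most 0.64 and 0.70. Beyond that addition, how far the passing of mt-Nd3 and mt-Atp6 in KO1 alone rests on the split of reads was not tested.

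**Figure D4:**
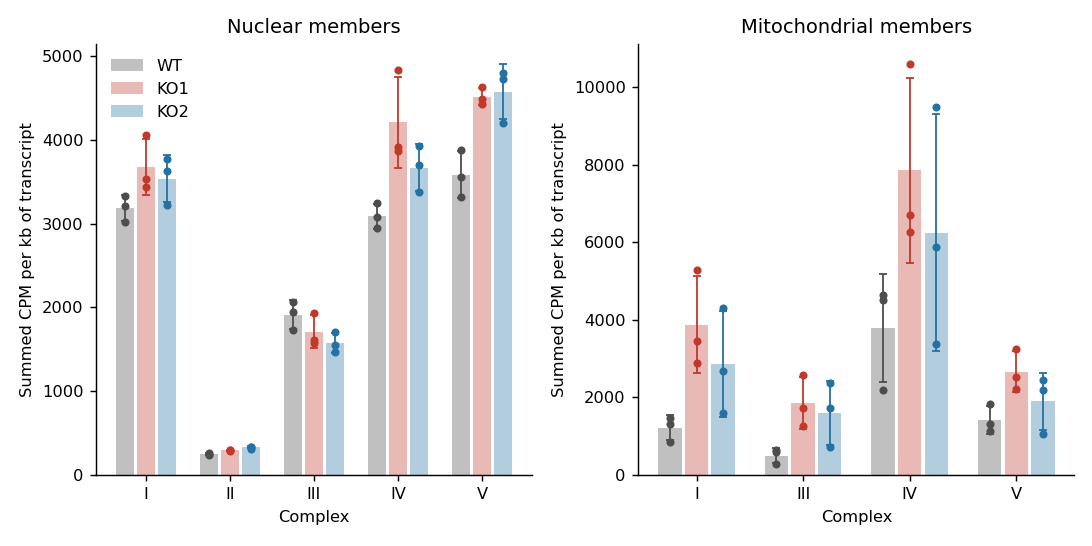
Summed CPM per kilobase of transcript (vertical axes, from 0) of the nuclear members (left) and the mitochondrial members (right) of each complex (horizontal axes). Bars are means, error bars SD and points the 3 libraries of a group. Nuclear sums of all 6 KO libraries lie above WT in complexes II, IV and V, and the means of the clones are below WT in complex III, while the mitochondrial sums of KO1 and KO2 have means above WT with a wide spread.

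Within each complex the balance between the genomes was set by summing CPM per kilobase. Nuclear sums were 1.15, 1.18, 0.893, 1.36 and 1.26 times the WT mean in KO1 for complexes I to V, and 1.11, 1.32, 0.822, 1.19 and 1.28 times in KO2. Mitochondrial sums were 3.20, 3.75, 2.08 and 1.86 times the WT mean in KO1 for complexes I, III, IV and V, and 2.36, 3.23, 1.65 and 1.33 times in KO2. The ratio of mitochondrial to nuclear sums in complex I was 0.459, 0.255 and 0.434 in WT, 0.818, 1.004 and 1.30 in KO1 and 1.34, 0.712 and 0.441 in KO2. KO1 lay above WT, and KO2 replicate 3 fell among the WT values. In complex IV, where mitochondrial transcripts were the more abundant side in all but 2 libraries, the ratio was 1.51, 0.672 and 1.53 in WT, 1.62, 1.71 and 2.19 in KO1 and 2.81, 1.497 and 0.915 in KO2. In complex V it was 0.401 ± 0.111 in WT, 0.587 ± 0.102 in KO1 and 0.421 ± 0.185 in KO2 (SD, n = 3), a difference within the spread for KO2.

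The other genes of the pathway are given as counts in the comparison of all KO libraries with WT, to be read against the 21.7% of all genes that were higher and the 21.2% that were lower. Among 22 tested genes of the tricarboxylic acid cycle and pyruvate dehydrogenase, 10 were higher and 0 lower in KO (median log2 fold change 0.38, edgeR), with 1 lower at an unadjusted p of 0.05. The largest rises were in Pdk4 and Pdk3, kinases that switch pyruvate dehydrogenase off. Pdk4 was at 1.36, 0.148 and 0.683 CPM in WT, 18.0, 37.4 and 32.2 CPM in KO1 and 11.8, 11.6 and 18.2 CPM in KO2 (log2 fold change 4.85 ± 0.76, adjusted p = 0.000835), and Pdk3 had a log2 fold change of 2.05 ± 0.12 (adjusted p = 3.42e-06). Of 50 assembly factors 6 were higher and 11 lower (12% and 22%, median -0.15), so that the share that fell was that of all genes, with Cox19, which serves copper delivery to complex IV, at 1.30 and Atpaf1, a chaperone of the F1 head, at -1.28. Sdhaf4, which assists complex II, rose (1.01) and Coa7, a complex IV factor, fell (-0.94). Of 19 electron carriers and entry enzymes 2 were higher and 2 lower (10.5% each, below the share of all genes), namely Coq8a (1.86) and Coq7 (0.77) of ubiquinone synthesis against Gpd2 (-0.40) and Etfb (-0.30).

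Of 25 tested genes that copy and read mitochondrial DNA 2 were higher and 4 lower (8% and 16%, median -0.07), both below the share of all genes. Polrmt, the mitochondrial RNA polymerase, and Tfb2m, which starts transcription with it, were higher by 0.38 and 0.53 on the log2 scale (adjusted p = 0.0186 and 0.00368), while Tefm, the elongation factor, and Trmt10c, part of mitochondrial RNase P, were lower (-0.97 and -0.89, adjusted p = 0.00881 and 0.000923). Among 12 regulators of mitochondrial biogenesis 2 were higher and 5 lower (16.7% and 41.7%). The coactivator Ppargc1a was at 3.93, 4.02 and 6.03 CPM in WT, 32.3, 30.8 and 55.9 CPM in KO1 and 12.4, 10.4 and 9.74 CPM in KO2, so the 3 groups did not overlap (log2 fold change 2.44 ± 0.64, adjusted p = 0.0125). Myc, a driver of cell growth, and Esrra, a nuclear receptor that activates respiratory genes, were lower (-1.67 and -0.74, adjusted p = 0.0314 and 0.00126). In the list of membranes, import and chaperones 1 of 23 was higher and 7 were lower (4.35% and 30.4%), among them the protease Lonp1 (-1.29) and the chaperone Hspa9 (-1.01), with the phosphate carrier Slc25a3 higher (0.40). Of 15 hypoxia response genes 2 were higher and 5 lower (13.3% and 33.3%), and the lowest log2 fold change of the list was -5.10. Among those that passed with a mean of at least 5 CPM, the glucose transporter Slc2a1 was at -3.17 and Vegfa at -1.73. Against these, P4ha1 was at 0.64 and Arnt at 0.42. In the proliferation list 0 of 12 passed with edgeR in the comparison of all KO libraries with WT, and 0 reached an unadjusted p of 0.05.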

How the data were processed

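Libraries were made from poly-A RNA with a stranded TruSeq kit and sequenced as paired 100-cycle reads. The authors quantified them with kallisto 0.46.1 on GENCODE vM24 transcripts (GRCm38, mm10) and deposited estimated counts per gene, which were whole numbers. From these, CPM were computed with TMM factors, and CPM per kb with transcript lengths from GENCODE vM21. Genes were tested with edgeR 4.0.16 (quasi-likelihood, filterByExpr, Benjamini-Hochberg over 17672 genes, threshold 0.05), in 1 fit of 3 groups for the clones and in a fit of 6 KO against 3 WT libraries. SE values follow from the F statistics. Limma-voom (limma 3.58.1), DESeq2 1.42.0, other scalings and filters, and each library left out were tried. The fit was tested on simulated data. Members, lists and tests were chosen with earlier results of these data known. Named with values were the extremes of each complex among members with a mean of at least 5 CPM, all Sdh and mitochondrial members, and isoforms. Members that passed with an absolute log2 fold change of at least 1 and a mean of at least 1 CPM were named too. From each list came the 2 largest rises and falls among genes that passed with a mean of at least 5 CPM. Other names were added after their values were seen. Shared 31-mers were counted in GENCODE vM21 transcripts.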

Additional observations from a re-analysis of the deposited data

Results flagged for a closer look

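The level differed between the clones for 19 nuclear members and 0 mitochondrial members, by the test of KO1 against KO2 in the edgeR fit. Nuclear members higher in KO1 and in KO2 made up 12.7% and 11.4% of those tested, less than the 20.2% and 18.5% of all genes. Log2 fold changes above 0 are higher in KO1. In complex I, Ndufa9 (0.52), Ndufa3 (0.47), Ndufb4 (0.46), Ndufb6 (0.41), Ndufb2 (0.33) and Ndufb10 (0.30) were higher in KO1, and Ndufb11 (-0.66), Ndufs6 (-0.63), Ndufs7 (-0.50) and Ndufa12 (-0.34) were higher in KO2. Ndufb4 and its near-identical copy Ndufb4c share reads, so its value is uncertain. In complexes II and III, Uqcrh was higher in KO1 (0.97), and Sdhb (-0.66) and Uqcrfs1 (-0.50) were higher in KO2. In complex IV, Ndufa4 (0.74) and Cox6a1 (0.50) were higher in KO1, and Cox7b (-0.44) and Cox6a2 (-6.00, from at most 4 counts in KO1, and not passing with limma-voom) in KO2. In complex V, Atp5o was higher in KO1 (0.54) and Atp5e in KO2 (-0.42). Ndufb2 and Atp5e passed narrowly, and their adjusted p rose as far as 0.220 and 0.131 under the alternatives. Each clone is 1 clone, so a difference between clones and a difference between any pair of single cells of the line cannot be told apart.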

How the results depend on the processing

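With 1 library left out, a named member lost its call in 86 cases and kept its side of the threshold in 1406. The log2 fold changes of the named members reversed under no alternative in which either value passed. Of the nuclear counts, those of KO1 against WT (43), KO2 against WT (45), KO1 against KO2 (19) and all KO against WT (38) moved by less than 1.5 times under limma-voom, DESeq2, upper-quartile scaling, scaling without mitochondrial genes, library totals, 6 libraries only or the average of the clone contrasts, and under other filters. Requiring an absolute log2 fold change of at least 1 left 4, 2, 1 and 1. With each library left out, they ranged from 33 to 42, 38 to 48, 13 to 17 and 22 to 40. Upper-quartile scaling turned the split between the clones from 10 higher and 9 lower to 15 and 7, and library totals to 14 and 7. The mitochondrial counts moved more. For KO2 against WT (5) limma-voom gave 3, and the range with a library left out was 1 to 7. For all KO against WT (5) DESeq2 gave 8, the average of the clone contrasts 9, and the range was 4 to 10. For KO1 against KO2 (0) DESeq2, upper-quartile scaling and testing without a filter each gave 1, 6 libraries gave 2, and the range was 0 to 2. For KO1 against WT (9) the range was 7 to 10. The causes were not tested. Adding counts of nuclear copies to mitochondrial members was chosen after seeing the data. No paired analysis was possible, because the labels give no replicate numbers and those used here only follow the order of the libraries. Depth was 53415907 counts or more, and scarce isoforms such as Cox6a2 in KO1 still held few counts. Other limits are 3 libraries per group and 1 clone per knockout.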

Other observations

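Ndufb1-ps, a row that the rule on -ps left out although it carried counts, was at 23.2, 21.8 and 24.0 CPM in WT, 34.98, 35.2 and 42.5 CPM in KO1 and 31.3, 35.6 and 34.7 CPM in KO2. All KO libraries lay above WT (log2 fold change 0.63, adjusted p = 0.00246 in edgeR). Of the other 9 rows with -ps, Ndufs5-ps had group means of 13.8 to 16.5 CPM and did not pass, and the remaining 8 were near 0.

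The mitochondrial ribosomal RNA mt-Rnr1 was lower in KO, at 59.7, 41.9 and 70.2 CPM in WT, 26.7, 22.6 and 47.1 CPM in KO1 and 23.0, 38.8 and 26.3 CPM in KO2 (log2 fold change -0.90, adjusted p = 0.0218), while mt-Rnr2 did not pass in that comparison (0.31, adjusted p = 0.486). mt-Rnr2 was at 107, 60.4 and 96.5 CPM in WT, 64.3, 71.1 and 85.0 CPM in KO1 and 169, 144 and 121 CPM in KO2. KO2 lay above all other libraries, higher than WT (log2 fold change 0.72, adjusted p = 0.0199 in edgeR) and than KO1 (-0.98 for KO1 against KO2, adjusted p = 0.00684). KO1 replicate 3 overlapped the WT values of mt-Rnr1. Poly-A libraries hold ribosomal RNA only as a residue. Among nuclear copies of mitochondrial DNA, Gm28661 was at 0.151, 0.0922 and 0 CPM in WT, 0.329, 18.9 and 2.98 CPM in KO1 and 153, 15.6 and 13.5 CPM in KO2, where KO2 replicate 1 stood apart.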
